A study of Mus musculus with 2 samples.

Results

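Rbm genes encode proteins named for the RNA-binding motif, and the 6 described here, Rbm39, Rbm25, Rbm27, Rbm33, Rbm19 and Rbm22, were examined for peaks of RNA recovered with BUD31. They were chosen by symbol because the deposited peak list assigns peaks to them, so having a peak is how they were selected and not a finding. They are 6 of the 3258 genes named in the list, and they hold 49 of its 16331 peaks. RNA immunoprecipitation sequencing was carried out on germ cells freed by enzymes from the testes of C57BL/6J mice aged 14 days after birth, with 1 library made with an antibody against BUD31 and 1 input library that took 10% of total RNA. No genotype change or drug is given for either library, and the number of animals behind each is not stated in the labels. The list names peaks but holds no fold, score, count or strand, so the depth is unknown. Neither group has replicates, and no p-value can be given.

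RNA-binding motif proteins carry one or more RNA recognition folds or related domains and act at many steps of RNA processing. A group of them works in pre-mRNA splicing, in which the spliceosome removes introns, and BUD31 is a component of that machine. Introns are the part of a transcript that splicing removes. Each peak in the list carries a single class for its whole width. A peak classed as intron can therefore also hold exon bases, and overlap with exons was not examined. Peaks are described below as lying in introns, exons or UTRs by this class alone. Germ cells entering meiosis are known for an unusually broad range of transcripts and splice forms.

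The 6 genes carried between 1 and 11 peaks each. Rbm39 and Rbm19 had 11, Rbm27 and Rbm33 had 9, Rbm25 had 8 and Rbm22 had 1. The share of each gene that lay under its peaks ran in a different order. It was 68.7% for Rbm27, 44.7% for Rbm25, 26.8% for Rbm22, 18.7% for Rbm33, 15.2% for Rbm39 and 10.2% for Rbm19. The 2 genes with the most peaks were the 2 with the smallest covered share, and their peaks were narrow. The median over the 6 genes was 9 peaks and 22.8% covered, beside 3 peaks and 14.0% over the 2799 protein-coding genes with a peak. No Rbm gene outside the 6 had more than 8 peaks, and the 6 were chosen with their peaks known. Their median is therefore not that of the Rbm family and shows no excess of peaks in it. The 6 genes are also long, with a median span of 58.6 kb against 37.1 kb for coding genes with a peak and 17.9 kb for all coding genes on chromosomes with peaks. As background, 18.8% of 14867 coding genes on those chromosomes had a peak, with 37.8% on chromosome 18 (Rbm27 and Rbm22), 39.2% on chromosome 5 (Rbm33 and Rbm19), 44.2% on chromosome 12 (Rbm25) and 5.78% on chromosome 2 (Rbm39). The part of gene length in these differences was not tested.

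**Figure D1:**
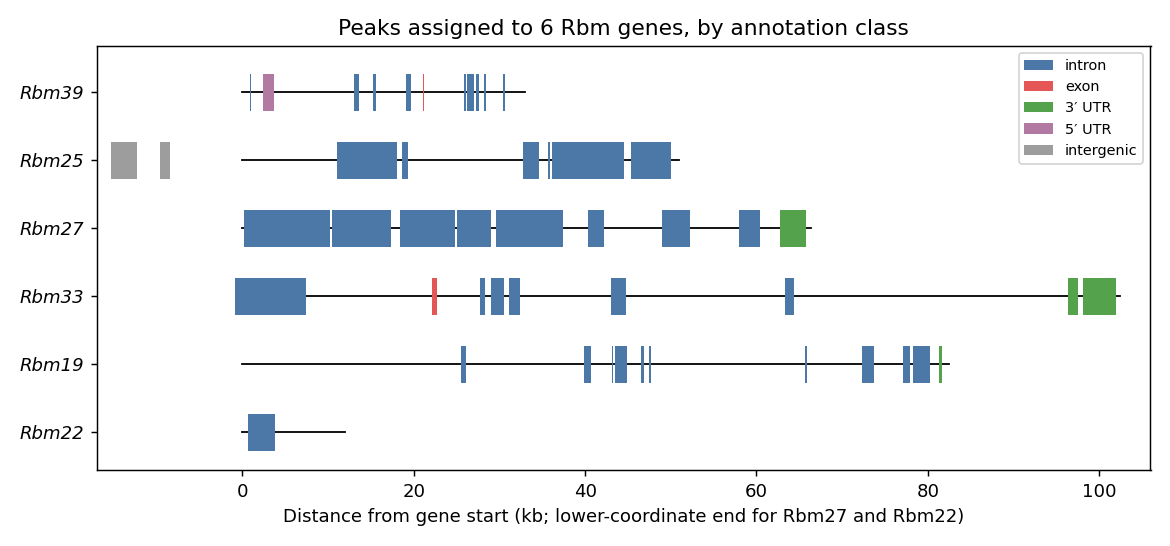
Each line is the extent of 1 gene in the reference table and each box is 1 assigned peak, placed by its distance in kb from the gene's start (from the lower-coordinate end for Rbm27 and Rbm22) and coloured by the authors' class. Rbm27 is covered nearly without break over its first stretch, Rbm39 and Rbm19 carry scattered narrow peaks, and the 2 intergenic peaks of Rbm25 lie before the gene.

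The intron class was given to 40 of the 49 peaks (81.6%, Wilson 95% interval 68.6% to 90.0%), against 81.8% of all peaks in the list. Another 4 peaks were annotated as 3′ UTR, 2 as exon, 1 as 5′ UTR and 2 as intergenic. The 3′ UTR share was 8.16% (3.22% to 19.2%), and its interval holds the 4.79% of the whole list. With this number of peaks no difference in class from the whole list could be seen. These intervals cover counting error over peaks only, and peaks of 1 gene are not independent.

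Rbm22 encodes the 1 protein of the 6 known to sit in the catalytic core of the spliceosome, where it contacts the U6 small nuclear RNA and the pre-mRNA in the same assembly as BUD31. The gene runs over 11944 bp of chromosome 18, from 60560786 to 60572729 in mm10. Its single peak was 3200 bp wide, from 60561401 to 60564600, and was annotated as intron. The peak began 615 bp inside the gene's lower-coordinate end and left the other 8129 bp of the gene without a peak. Although it was the only peak of the gene, it was close in width to the typical peak of its chromosome, where the median was 3400 bp. By covered share Rbm22 ranked 111 of the 193 coding genes with a peak on chromosome 18. The neighbouring noncoding gene Gm52358 ends 44 bp before Rbm22 and the peak did not reach it.

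Rbm39 encodes a splicing factor related to the large subunit of U2AF, the protein that recognises the 3′ splice site, and it is the target of sulfonamide drugs that cause its degradation. The gene lies on the minus strand of chromosome 2, from 156147239 to 156180238, a span of 33.0 kb. Its 11 peaks comprised 9 in introns, 1 in an exon and 1 in the 5′ UTR. They measured 200 to 1200 bp with a median of 400 bp, and 5 of them were 200 bp wide, the single bin in which positions on this chromosome are given. The widest, from 156176601 to 156177800, was the 5′ UTR peak, which lay 2.44 kb into the gene and belongs to an isoform model, XM_017315978.1. The exon peak, from 156159001 to 156159200, was assigned to another model, XM_011239323.2. With the gene cut into 3 equal parts in the direction of transcription, 12.7% of the first part, 16.4% of the middle part and 16.4% of the last part lay under peaks, so coverage was nearly even along the gene.

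Rbm39 stood high among the genes with peaks on chromosome 2, where the list is sparse. Of the 1782 coding genes there 103 had a peak. Those 103 genes had a median of 2 peaks and a median covered share of 2.42%. Rbm39 ranked 6 by number of peaks and 16 by covered share. It also had the highest peak density of the 6 genes, at 3.33 peaks per 10 kb, against 0.837 for Rbm22 at the other end. Its 400 bp median width equalled that of all 367 peaks on the chromosome.

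Rbm25 encodes a factor with an arginine- and glutamate-rich region that associates with the U1 small nuclear ribonucleoprotein and influences the choice of 5′ splice sites. The gene lies on the plus strand of chromosome 12, from 83632208 to 83683127. Of its 8 peaks 6 lay inside the gene, all classed as intron, and covered 22.8 kb. The coverage was concentrated towards the 3′ end, with 82.6% of the last of 3 equal parts under peaks against 34.8% of the first and 16.7% of the middle part. A peak of 8405 bp, from 83668291 to 83676695, and a peak of 4715 bp, from 83677516 to 83682230, made up most of that last part. The remaining wide peak, of 6970 bp, ran from 83643281 to 83650250. A peak of 615 bp followed it, and then came 13.5 kb with no peak.

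The other 2 peaks that the list names for Rbm25 were annotated as intergenic and cover none of the gene. They run from 83616836 to 83619910 and from 83622576 to 83623805, and begin 15.4 kb and 9.63 kb before the gene's start. The pseudogene Gm6722, at 83620208 to 83621180, lies between them and overlaps neither. Counting only peaks that overlap the gene leaves Rbm25 with 6. By covered share Rbm25 ranked 105 of the 300 coding genes with a peak on chromosome 12, whose median was 32.0%.

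Rbm27 encodes a zinc finger and RNA recognition motif protein linked to the decay of polyadenylated RNA in the nucleus. It was the most fully covered of the 6 genes, with 45.6 kb of its 66.3 kb under peaks. The gene runs from 42275205 to 42341542 on chromosome 18. Its 9 peaks measured 1800 to 10000 bp with a median of 4000 bp, and 8 were annotated as intron. The first 5, in order of position, ran from 42275401 to 42312600 with breaks of only 200 to 1000 bp between them. Breaks of 2400 to 6800 bp separated the remaining peaks. Of 3 equal parts in order of position, 93.7%, 73.6% and 38.9% lay under peaks.

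The only Rbm27 peak not classed as intron was its 3′ UTR peak of 3000 bp, from 42338001 to 42341000, at the upper-coordinate end of the gene. Of all coding genes with a peak 91.1% were covered to a smaller share, and on chromosome 18 it ranked 42 of 193. Rbm27 and Rbm22 share this chromosome, where the typical peak is wide, and the part of that width in their values was not tested.

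Rbm33 encodes a protein that binds the RNA demethylase ALKBH5 and takes part in messenger RNA export. It is the longest of the 6 genes, at 102 kb on the plus strand of chromosome 5, from 28316836 to 28419244. Its 9 peaks comprised 6 in introns, 2 in the 3′ UTR and 1 in an exon. The first peak was 8200 bp wide, and the last 2, of 1200 and 3800 bp, ended at 28418800, within the last stretch of the gene. Between the 3′ UTR peaks and the peak before them lay 32.0 kb without any peak, the longest break in any of the 6 genes. The covered share was 33.3% in the first of 3 equal parts, 8.20% in the middle part and 14.6% in the last.

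The first peak of Rbm33, from 28316001 to 28324200, was the only one of the 49 that reached across a start-site window of its gene in the RefSeq promoter table (GRCm38.p6, the mm10 assembly). Of the 8200 bp, 835 bp lay before the gene's extent, and the peak also overlapped Gm35602, a long noncoding RNA gene at 28297370 to 28317087. Without strand the 2 genes' RNA cannot be told apart at this end. The stretch is shown because the peak covers the start site that the table gives, 28317189. It lies wholly within the gene's extent, which begins upstream of it at 28316836, and its bases up to 28317087 also lie within Gm35602. Capitals mark the 30 bases from the table's start site on.
Rbm33, chr5:28316939-28317218, plus strand: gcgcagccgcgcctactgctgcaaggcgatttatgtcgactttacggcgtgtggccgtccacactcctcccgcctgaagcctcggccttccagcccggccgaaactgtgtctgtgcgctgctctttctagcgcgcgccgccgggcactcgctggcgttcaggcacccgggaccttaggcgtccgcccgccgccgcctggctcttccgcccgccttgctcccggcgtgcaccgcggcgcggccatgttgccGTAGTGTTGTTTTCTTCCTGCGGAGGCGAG

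The table holds 5 such windows for 4 of the genes, Rbm39, Rbm25, Rbm33 and Rbm19, and none for Rbm27 and Rbm22. The table's start sites that no peak covered are shown for comparison, 15 bases before each and, in capitals, 15 from it on.
Rbm39, upstream start, chr2:156180224-156180253, minus strand: ccggggcagtttctcGCGAGAGCCCGTGCT
Rbm39, downstream start, chr2:156179566-156179595, minus strand: tacacaacccctcccAGCGGAGGGAGTCTC
Rbm25, chr12:83635695-83635724, plus strand: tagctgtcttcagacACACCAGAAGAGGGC
Rbm19, chr5:120116498-120116527, plus strand: ggcgggggccacgtgACTCGCTAAAAATGG
The nearest peak assigned to Rbm39 lay 838 bp from its upstream start and 180 bp from its downstream one. For Rbm25 and Rbm19 the nearest assigned peak lay 7.57 kb and 25.5 kb from the start. Peaks assigned to the noncoding gene Gm10390, the first from 120121601, lie closer to the start of Rbm19. The narrow intron peak of Rbm39 from 156179201 to 156179400 was the nearest to both of its starts, and it lies within the gene after each of them.

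Rbm19 encodes a nucleolar protein with several RNA recognition motifs that is needed for processing of the ribosomal RNA precursor. The gene spans 82.5 kb on the plus strand of chromosome 5, from 120116513 to 120198971. Its 11 peaks, 10 in introns and 1 in the 3′ UTR, measured 200 to 2000 bp with a median of 600 bp. The first 25.5 kb of the gene had no assigned peak. Of 3 equal parts the first was covered to 2.18%, the middle to 10.9% and the last to 17.5%, so coverage was larger towards the 3′ end. The widest peak, of 2000 bp, ran from 120194801 to 120196800, and the 3′ UTR peak of 400 bp followed at 120197801 to 120198200.

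Part of the empty stretch of Rbm19 holds another gene. The noncoding RNA gene Gm10390 occupies 120121096 to 120139263 within it, and the list assigns it 2 exon peaks, of 800 bp from 120121601 and 400 bp from 120122601. By position alone these would raise Rbm19 to 13 peaks and 11.6% covered. Rbm19 and Rbm33 lie on the same chromosome, where the median gene with a peak was covered to 10.1%. Rbm19 ranked 248 of 497 there by covered share and 32 by number of peaks, while Rbm33 ranked 138 and 55.

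**Figure D2:**
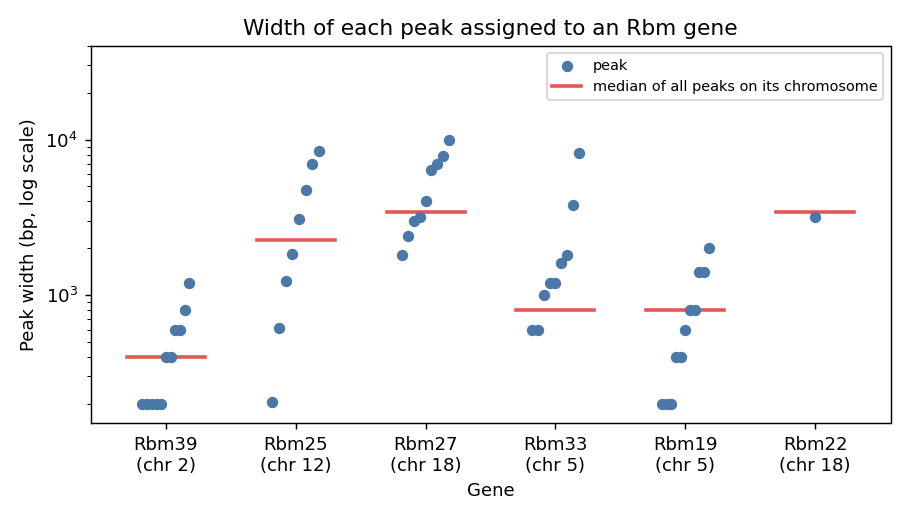
Each point is 1 peak assigned to the gene on the x axis (its chromosome in brackets), the y axis is the width in bp on a log scale, and the red bar is the median of all peaks on that chromosome. Peaks of Rbm39 and Rbm19 reach no more than 1200 and 2000 bp, while those of Rbm27 span 1800 to 10000 bp.

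Peak width varied with the chromosome. The median over all peaks was 400 bp on chromosome 2, 800 bp on chromosome 5, 2255 bp on chromosome 12 and 3400 bp on chromosome 18. The member medians of 400 bp for Rbm39, 600 and 1200 bp for Rbm19 and Rbm33, 2460 bp for Rbm25, and 4000 and 3200 bp for Rbm27 and Rbm22 lay near them. Single-bin peaks numbered 9 of the 49, of which 8 belonged to Rbm39 and Rbm19. The covered shares of genes on different chromosomes therefore cannot be compared apart from this difference in width.

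**Figure D3:**
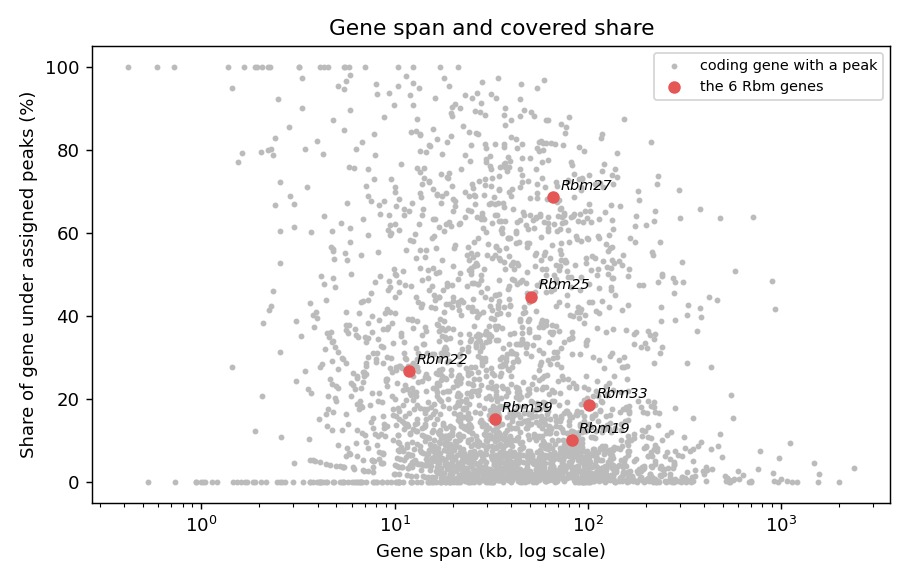
Grey points are the 2799 protein-coding genes with a peak, with gene span in kb on a log scale on the x axis and the share of the gene under assigned peaks on the y axis. The 6 Rbm genes in red stand between 10.2% and 68.7% covered, within the spread of genes of like span.

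The position of the peaks along the gene took no shared form. Of the 4 genes with a strand given, Rbm25 and Rbm19 were covered most in the last part, Rbm33 in the first, and Rbm39 nearly evenly. No strand was given for Rbm27, but its 3′ UTR peak lies at its upper-coordinate end. In order towards that end its parts were covered to 93.7%, 73.6% and 38.9%. Over the 1522 coding genes with at least 2 peaks and a strand in the promoter table, the median covered share was 16.5% in the first part, 16.2% in the middle and 16.1% in the last, and 47.2% of them had more coverage in the last part than in the first.

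The running numbers of the peaks were not consecutive within these genes. From the first to the last peak of each gene, 3 of 14 numbers were absent in Rbm39, 3 of 11 in Rbm25, 5 of 14 in Rbm27, 10 of 19 in Rbm33 and 16 of 27 in Rbm19. Where no number was skipped between neighbouring peaks (24 pairs), the gap had a median of 600 bp and reached 3400 bp. Where at least 1 was skipped (19 pairs), the median was 6800 bp and the widest was 32000 bp. Across the 32.0 kb break in Rbm33 the list skips 4 numbers. What the absent numbers stood for, and where they lay, is not given, so an empty stretch does not show that no RNA was recovered there.

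The Rbm family holds 43 protein-coding genes in the reference table, and 12 of them, on chromosomes without peaks here, were not analysed. Of the other 31 genes 15 had a peak (48.4%, 32.0% to 65.2%), against the 18.8% of all coding genes. The 6 genes described above were taken from those 15 with their peaks known. Without them 9 of 25 had a peak (36.0%, 20.2% to 55.5%). Chromosomes were called well covered when the share of their coding genes with a peak reached 10%. On these 8 chromosomes the family count was 12 of 16, beside 35.7% of all coding genes, and without the genes described above it was 7 of 11 (63.6%, 35.4% to 84.8%). On the others it was 3 of 15, beside 2.28% of all coding genes. These 3 were Rbm39, one of the genes described above, and Rbm12 and Rbm38. All lie on chromosome 2, where the family count was 3 of 7 and 5.78% of all coding genes had a peak. The median span was 15.7 kb over the 31 genes, against 17.9 kb for all coding genes on chromosomes with peaks. On well covered chromosomes it was 24.9 kb over the 16 genes, and 15.7 kb over the 11 without the genes described above. The span of all coding genes on well covered chromosomes alone was not computed. These shares are descriptions, since the symbols were proposed with the results known.

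**Figure D4:**
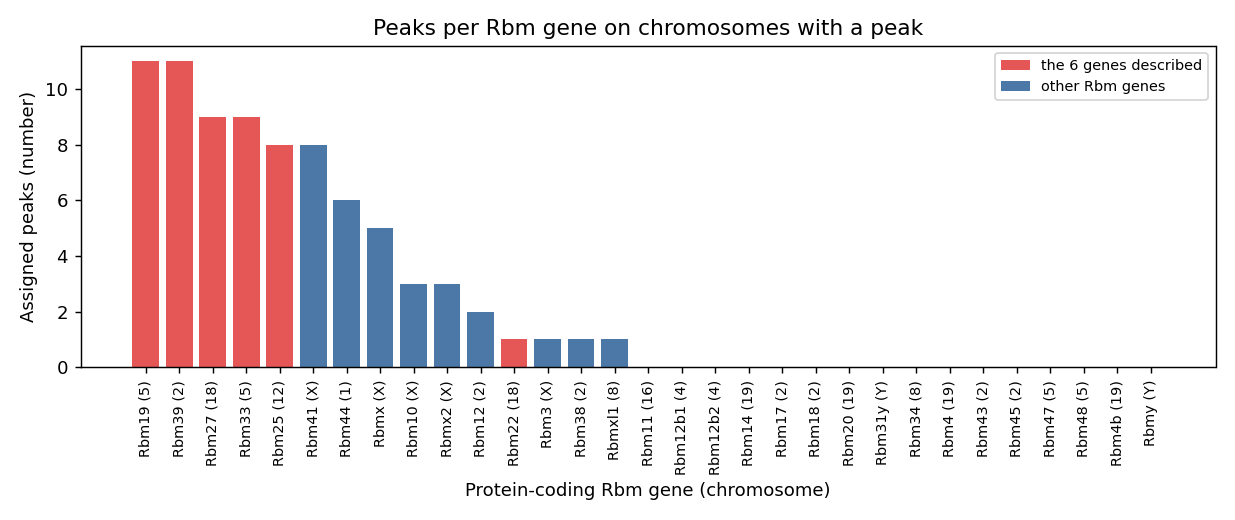
Bars give the number of assigned peaks for each of the 31 protein-coding Rbm genes on chromosomes with a peak, with the chromosome in brackets, red for the 6 genes described and blue for the others. The other genes reach at most 8 peaks, in Rbm41, and 16 genes have none.

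The 9 other Rbm genes held 30 peaks. All 5 on the X chromosome had some, where 48.6% of all coding genes had a peak. Rbm41, a protein of the minor spliceosome, had 8 peaks over 16.2% of its gene, including 2 in the 3′ UTR. Rbm10, which represses exon inclusion, had 3 intron peaks over 56.9%, the widest of 17020 bp, and Rbmx2, a subunit of a complex that retains and splices pre-mRNA, had 3 over 47.3%. Rbmx, also known as hnRNP G, had 5 peaks of which 4 were annotated as intergenic, and the cold-inducible gene Rbm3 had 1, in its 3′ UTR. On chromosome 1 Rbm44, a germ cell protein of intercellular bridges, had 6 peaks over 69.1% of its length. That is slightly above the share of Rbm27, but median peak width differs, at 1025 bp on chromosome 1 and 3400 bp on chromosome 18.

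On chromosome 2 Rbm12 had 2 intron peaks and Rbm38 had 1, each of 200 to 400 bp, beside the 11 of Rbm39. The peak named for Rbmxl1 on chromosome 8 was intergenic and covered 0 bp of the gene. Among the 16 without a peak, Rbm47 (135 kb) and Rbm48 lie on chromosome 5 with Rbm33 and Rbm19, and had none despite the coverage of that chromosome. Rbm11 and Rbm34 lie on the other well covered chromosomes. The remaining 12, among them the 206 kb gene Rbm20 on chromosome 19, lie where few coding genes had a peak.

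Genes that work beside the 6 proteins were described from 5 lists. Together 24 of 72 genes on chromosomes with peaks had a peak (33.3%), against 18.8% of all coding genes. The median span of a list ran from 13.4 kb for nuclear decay and export to 31.3 kb for U1 and the 5′ splice site. It was 26.0 kb for the small subunit processome, against 17.9 kb for all coding genes. The part of gene length in these counts was not tested. Partners of Rbm19 in the small subunit processome, which makes the small ribosomal subunit, had the largest count, 9 of 18 (50%, 29.0% to 71.0%). On well covered chromosomes, where 35.7% of all coding genes had a peak, it was 9 of 10. On those chromosomes the 3′ splice site list described next had 4 of 5, the list for U1 and the 5′ splice site 2 of 2, and that for nuclear decay and export 4 of 6. Nop58, a core protein of box C/D small nucleolar particles, and Utp14a had 6 peaks each, Utp20 had 5 and Ncl and Wdr75 had 3. Of these, 2 Ncl peaks and 1 Nop58 peak were annotated as intergenic, and 1 Nop58 peak as downstream. Only 5.56% of Ncl was covered. The Utp14a peaks covered 54.3% of the gene.

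For the 3′ splice site, where Rbm39 acts, 5 of 11 genes had a peak (45.5%, 21.3% to 72.0%). Zrsr2, an X-linked factor of minor introns, had 10 peaks that covered 68.8% of it. Sf3b1, which holds the branch site, had 6, of which 1 was annotated as intergenic. Rbm10 had 3 and stands in the family count as well, while Puf60 and Sugp1 had 1 each. For U1 and the 5′ splice site, the setting of Rbm25, it was 3 of 7 (42.9%, 15.8% to 75.0%). Prpf39, a U1-associated protein, had 4 peaks over 47.7% of its gene, 3 in introns and 1 in the 5′ UTR.

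Nuclear RNA decay and export, the setting of Rbm27 and Rbm33, had 5 of 16 (31.2%, 14.2% to 55.6%). Srrt, which joins the cap-binding complex to decay, and Zcchc8, a scaffold of an exosome adaptor, had 4 peaks each. Nxt2, an export cofactor, had 2 in its 3′ UTR, Zfc3h1 had 2 and Ddx39b had 1. The active spliceosome list, the setting of Rbm22, had 2 of 20 (10.0%, 2.79% to 30.1%), Bud31 itself and Snw1 with 1 peak each. On well covered chromosomes it was 2 of 5, near the 35.7% of all coding genes there. The intervals of the lists overlap, and no difference between lists was tested.

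**Figure D5:**
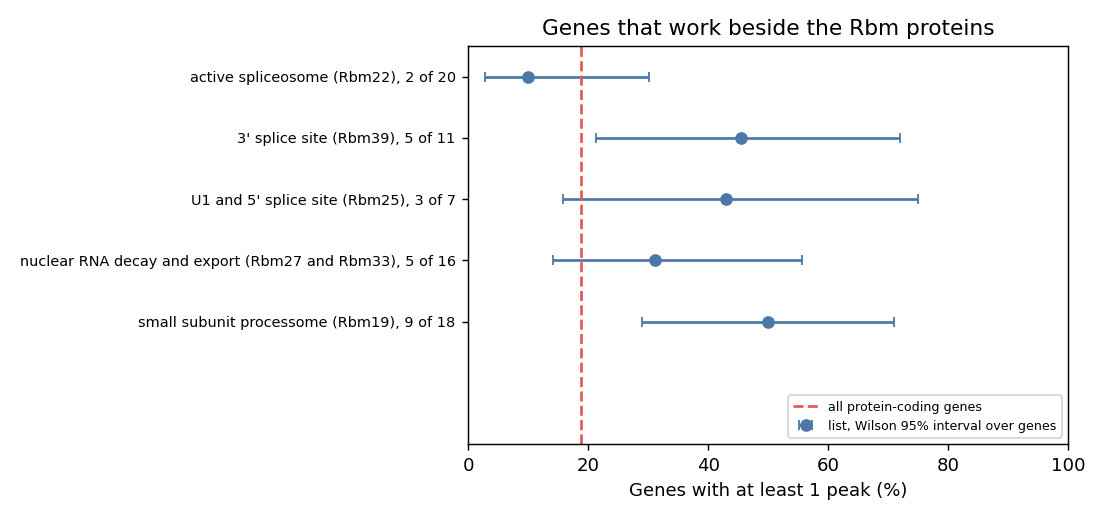
Points give the percentage of genes with at least 1 peak in each of 5 lists of genes that work with the Rbm proteins, bars give Wilson 95% intervals over genes, and the dashed line is the 18.8% of all protein-coding genes. The active spliceosome list stands lowest at 10.0% and the small subunit processome highest at 50%.

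The cell label could be set against few markers, since a peak is not an expression level. Of 2 germ cell markers on chromosomes with peaks Sycp3 had 1 and Dazl had none, and of 5 somatic markers only Wt1 had one, a single peak over 0.425% of the gene. Sycp3 lies on a well covered chromosome, and 35.7% of all coding genes on such chromosomes had a peak. Dazl and the somatic markers lie on the others, where 2.28% had one. These counts therefore cannot be used to judge the cell label.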

How the data were processed

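RNA from the BUD31 immunoprecipitation and its input was sequenced, 1 library each, grouped by sample title. TopHat2 2.0.13 and the mm10 build are listed in the submitters' processing notes. Not given in the sources used here is how peaks were called, at what threshold, how the input was used or which annotation served. The authors deposited 1 annotated list of peaks as genome positions in bp, in bins of fixed size per chromosome (200 bp on chromosomes 2, 5 and 18, 205 bp on 1 and 12, 230 bp on X), with no other measurement. Depth is therefore unknown.

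Peaks were matched to the 6 genes by symbol and to other genes by gene number. Gene extents came from a RefSeq table of GRCm38.p6, and covered share is the overlap of assigned peaks with the extent. Start-site sequences are RefSeq's. Counts carry Wilson 95% intervals. No test was run, since the genes and gene lists were chosen with earlier results of these data known. Genes named are the 6, every other Rbm gene with a peak, up to 5 partners per list by number of peaks, and genes overlapping a member's peak. Rbm23 did not match by name. Rbm genes without a peak, neighbouring genes that no peak of a member overlaps, and cell markers were named outside this rule, after their values were seen. Some genes that this rule would name are not reported here. Family genes were limited to protein-coding ones, a limit set after the data were seen. The counting code was tested on simulated data. Alternatives were wider peaks, overlap with the gene, joining peaks, gene classes and well covered chromosomes. Scripts ran under Python 3.11.15 with pandas 2.3.3, numpy 2.4.6 and scipy 1.17.1.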

Additional observations from a re-analysis of the deposited data

How the results depend on the processing

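Of 67 recomputed values 52 stayed within 1.5 times the reported count, or inside an interval for a share, and 15 did not. The interval of the intron share is given above, but those used for covered shares are not reported here. Stretches of a gene under the same peak are not independent, so an interval over gene length is not a valid error for a covered share. For covered shares the split is therefore only a working label and does not measure how stable they are. Keeping peaks at least as wide as their chromosome's median left 27 of the 49 peaks and a median covered share of 14.8%, by construction of fewer peaks, and it removed the single peak of Rbm22. Joining peaks at most 1000 bp apart left 32 stretches. Overlap of at least 1 bp with the gene also gave 49 peaks, but 2 fewer in Rbm25 and 2 more in Rbm19. The share of peaks classed as intron was 85.2% with wider peaks. Peaks of that class held 86.5% of the summed peak width. The family count ran from 12 to 14 genes over its 4 alternatives, against 15. No paired analysis was possible because each group has 1 library. Without counts or scores, a narrow peak cannot be graded as stronger or weaker than a wide one.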

Other observations

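Some peaks of related genes fall outside the family count. Rbms2, a single-stranded interacting relative on chromosome 10, had 1 intron peak of 1000 bp. The noncoding gene Rbm3os, opposite Rbm3 on the X chromosome, had 1 exon peak of 6900 bp from 8143151 to 8150050, which also reaches over part of Rbm3 (8138975 to 8145880), so the 2 genes cannot be separated there without strand.

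Rbm12 and Rbm39 follow each other in the running numbers on chromosome 2. The 2 Rbm12 peaks are numbers 34326 and 34327 and the first of Rbm39 is 34328, with no number absent between them.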
